A study of Homo sapiens with 4 samples.

Results

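Respiratory complex I (NADH:ubiquinone oxidoreductase) is the entry point of electrons from NADH into the mitochondrial respiratory chain. Its nuclear-encoded subunits and many of its assembly factors carry symbols that begin with NDUF, and the mRNAs of these genes are described here along a polysome gradient. A gene was a member if its symbol began with NDUF and it had 30 or more counts summed over the 4 libraries. The count table held 48 such symbols among 19948 genes, and 41 of them were members. The minimum of 30 counts was passed by 7527 genes in all, which are called the genes tested below.

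The 4 libraries came from HEK293T cells, a human embryonic kidney line that carries the SV40 large T antigen. All 4 pools share 1 treatment, cycloheximide at 100 ug/mL for 10 min, which holds elongating ribosomes on their mRNAs. The lysate ran through sucrose from 10% to 50%, and capped, polyadenylated RNA of the free, monosome, light polysome and heavy polysome pools was read directly as RNA on nanopores, with 1 library per pool. The study asks how mTOR and LARP1 act on the ribosome loading and poly(A) tails of TOP mRNAs, which begin with a run of pyrimidines at the cap. No library here carries a label naming an mTOR inhibitor or a LARP1 deletion.

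Complex I is L-shaped. Its peripheral arm reaches into the matrix, takes electrons from NADH and hands them along iron-sulfur clusters to ubiquinone, and its membrane arm pumps protons. The catalytic core is made by conserved subunits, of which those in the peripheral arm are encoded in the nucleus and those that pump protons in mitochondrial DNA. Accessory subunits, most of them small, surround the core, and assembly factors join the pre-built modules and then leave. The mitochondrially encoded subunits are not analysed here.

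The shortest members are short enough to be read whole, and they recur below because they lay at the light end of the gradient. The coding sequences of 3 of them are shown from GENCODE 29 transcripts, with the start and stop codons in capitals. NDUFAF8 (chromosome 17, 81239239 to 81241281, plus strand) encodes an assembly factor and has 222 coding nucleotides without the stop codon. NDUFC1 (chromosome 4, 139266880 to 139302551, minus strand), with 228, and NDUFA1 (chromosome X, 119871487 to 119876662, plus strand), with 210, encode small accessory subunits of the membrane arm. All positions are on the hg38 build.
NDUFAF8: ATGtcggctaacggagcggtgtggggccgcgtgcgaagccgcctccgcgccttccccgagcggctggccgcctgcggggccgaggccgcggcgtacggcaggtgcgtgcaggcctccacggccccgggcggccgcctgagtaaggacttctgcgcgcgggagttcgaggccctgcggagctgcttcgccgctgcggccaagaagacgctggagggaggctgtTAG
NDUFC1: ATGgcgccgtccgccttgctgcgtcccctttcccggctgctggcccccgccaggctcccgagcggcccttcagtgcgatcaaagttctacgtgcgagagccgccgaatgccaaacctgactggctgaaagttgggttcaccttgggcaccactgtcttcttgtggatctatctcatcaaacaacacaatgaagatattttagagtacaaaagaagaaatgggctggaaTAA
NDUFA1: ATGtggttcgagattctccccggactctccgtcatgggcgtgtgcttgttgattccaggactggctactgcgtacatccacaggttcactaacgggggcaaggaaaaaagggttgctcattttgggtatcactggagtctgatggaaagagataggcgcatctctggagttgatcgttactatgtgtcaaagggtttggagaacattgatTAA

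Because the study concerns TOP mRNAs, the annotated starts of the members were searched on the transcribed strand for a C followed by 4 pyrimidines at the first transcribed base. RefSeq (GRCh38.p14) held starts for 35 of the 41 members, 46 starts in all, and 1 of them, a start of NDUFC1, had the motif. That is 2.86% of these members, against 71.0% of 62 ribosomal protein genes and 8.50% of 6131 tested genes with a start in the same table. A G was the first base at 26 of the 46 starts and an A at 17. The windows below hold 15 bases before and 15 after the start of members with many counts or an extreme place in the gradient, with the first 5 transcribed bases in capitals. The start of RPLP0, a ribosomal protein gene with the motif, is given for comparison. Annotated starts are not the starts used in these cells, and the motif was searched at these positions only.
NDUFB10 (chr16:1959523-1959552, plus): ccctcggcgtcctctGTAGCgggcgaccta
NDUFS8 (chr11:68030666-68030695, plus): tacagtgtagcctccGCCTCccgattgact
NDUFV1 (chr11:67606921-67606950, plus): ccacctagcgtctctATCGCgccagttcct
NDUFA10 (chr2:240025328-240025357, minus): ggccccgtcgcgaccGCGTCcccttgggtc
NDUFC1, the start with the motif (chr4:139302537-139302566, minus): tcgcaatgggccccaCCTCCcgagaagagt
RPLP0 (chr12:120201097-120201126, minus): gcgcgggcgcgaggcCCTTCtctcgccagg

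Library totals were 355509 counts (free), 1329334 (monosome), 1499401 (light polysome) and 1564531 (heavy polysome). Each pool is a single library, so differences have no replicate check and carry no p-value, and the 95% intervals cover counting error alone. Of the HEK293T genes looked up, VIM, KRT18 and NEFL had 850, 285 and 218 counts over the libraries, KRT8 and NEFM 51 and 40, and PAX2 and LHX1 6 and 2. ALB, PTPRC, CD3E and INS, genes of other cell types, had none, HBB had 4, COL1A1 had 2 and COL3A1 had 1.

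NDUF mRNAs took a larger share of the light polysome library than of the other libraries. The 41 members summed to 1116, 10876, 18035 and 14634 counts from the free to the heavy polysome library. This was 0.314% of the free library (Clopper-Pearson interval 0.296 to 0.333), 0.818% of the monosome library (0.803 to 0.834), 1.20% of the light polysome library (1.19 to 1.22) and 0.935% of the heavy polysome library (0.920 to 0.951). The median member had 50.6, 148, 229 and 174 CPM (the share of a library, rescaled alike in all 4) in the same order, and the median gene tested had 2.81, 12.0, 24.7 and 37.7 CPM. The median gene tested thus had its highest CPM in the heavy polysomes and the median member in the light polysomes. In the free library 29 of the 41 members had 10 or more counts, against 40 of 41 in each of the other libraries.

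**Figure D1:**
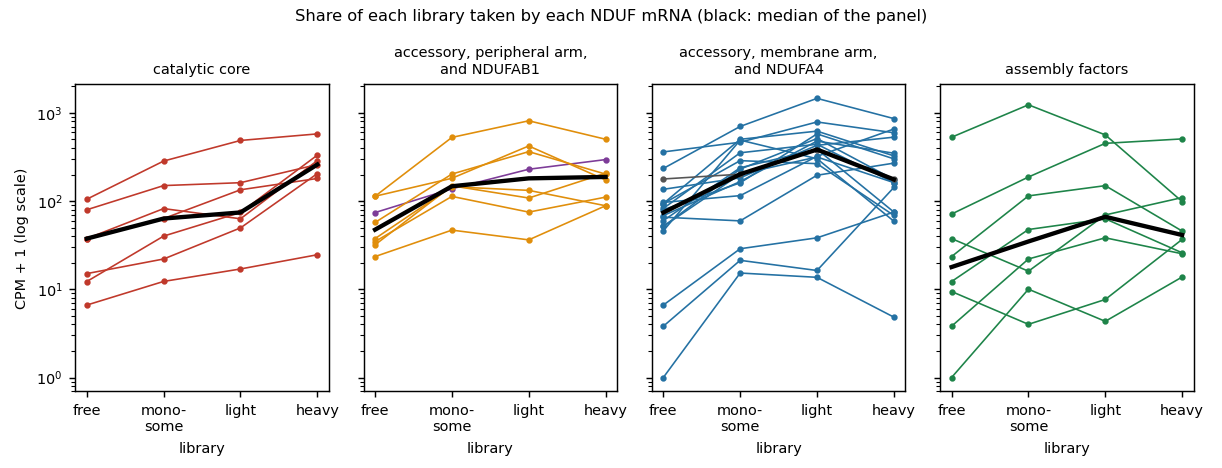
Each line is 1 NDUF mRNA, with CPM plus 1 on a log scale against the library, in 4 panels by role (NDUFAB1 in purple and NDUFA4 in grey share the accessory panels); the black line is the panel's median. The core lines end at their highest point in the heavy polysomes, while the median of the membrane arm panel is highest in the light polysomes.

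The roles differed in where on the gradient their mRNAs were highest. All 7 core mRNAs had their highest CPM in the heavy polysome library, as did 5 of 17 membrane arm accessory mRNAs, 2 of 7 peripheral arm accessory mRNAs, 4 of 8 assembly factor mRNAs and that of NDUFAB1. Of all genes tested, 61.3% were highest there. A mean gradient position, which weights the CPM of a gene by 0, 1, 2 and 3 from free to heavy polysome, had a median of 1.97 over the members (order-statistic interval 1.79 to 2.06) and 2.25 over the genes tested. The median position was 2.11 for core subunits, 1.86 for peripheral arm and 1.84 for membrane arm accessory subunits, and 2.03 for assembly factors. Positions ran from 1.09 for NDUFAF8 to 2.64 for NDUFA10. No member was highest in the free library, where only 1.30% of the genes tested were highest.

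**Figure D2:**
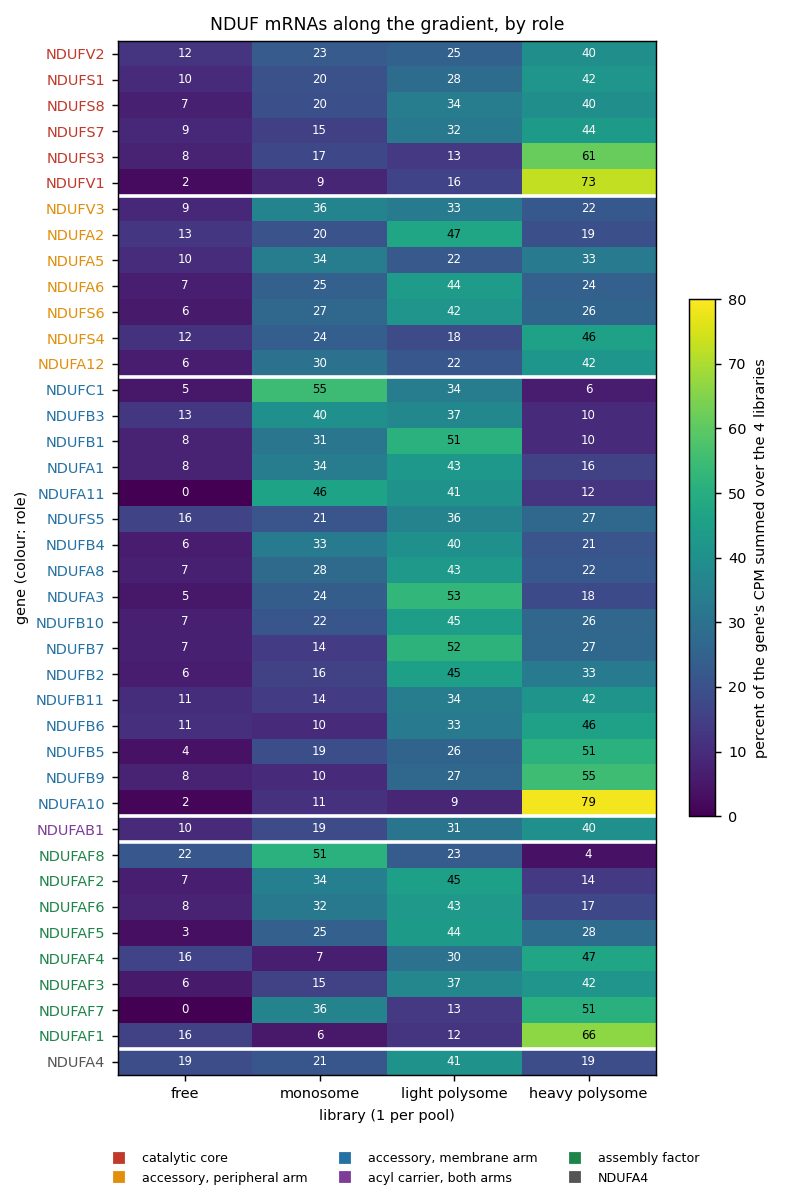
Rows are NDUF members, ordered by role and within a role by mean gradient position, and columns are the 4 libraries; numbers and colours give the percent of a gene's CPM, summed over the libraries, that fell in each. NDUFV1 and NDUFA10 hold over 70% in the heavy polysome column, and NDUFAF8 and NDUFC1 hold over 50% in the monosome column.

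The comparisons below give the log2 ratio of shares of a library, with 0.5 added to each count, relative to the median of the genes tested. That median gene had a 1.51-fold higher share in the heavy than in the light polysomes, 1.98-fold in light polysomes over monosomes, 2.41-fold in monosomes over free and 8.26-fold in heavy polysomes over free (log2 0.59, 0.98, 1.27 and 3.05). A gene was called higher or lower when it lay at least 2-fold from the median gene and its counting interval lay on 1 side of it. In the free library the median gene tested had 2.81 CPM, which is 1 count at that depth, and the median member had 18 counts. The centre of the comparisons with the free pool therefore rests largely on genes with about 1 count there. The comparisons share libraries and are not independent of each other.

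Heavy and light polysomes were compared to see which NDUF mRNAs carried many rather than few ribosomes. By this rule 20 of the 41 members were called lower in the heavy polysomes and 5 higher, while it called 28.3% of the genes tested lower and 26% higher. The median over the members was -0.998 (-1.52 to -0.04), and 29 of 41 were below the median gene. The higher members included NDUFA10, NDUFAF1 and the core subunits NDUFS3 and NDUFV1. Without centring on the median gene, the same rule gave 8 members higher and 11 lower, beside 39.3% and 17.9% of the genes tested.

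Core subunits lay toward the heavy polysomes or level with the median gene, and none of the 7 was called lower. NDUFV1, which binds NADH and the flavin that takes its electrons, had 4, 52, 110 and 518 counts from free to heavy polysome. It lay at 1.58 (1.28 to 1.89) in heavy over light polysomes. NDUFS7, which carries the last iron-sulfur cluster before ubiquinone, had 13, 83, 200 and 281 counts and lay at -0.16 (-0.43 to 0.11), so the intervals of NDUFV1 and NDUFS7 did not overlap. NDUFS3, which also belongs to the quinone module, had 13, 108, 93 and 449 counts and lay at 1.61 (1.29 to 1.96). Its monosome count exceeded its light polysome count in spite of the smaller monosome library.

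The remaining core mRNAs lay close to the median gene. NDUFS8, an iron-sulfur protein, was the most counted core mRNA with 37, 377, 729 and 903 counts and lay at -0.34 (-0.49 to -0.20). NDUFV2, an iron-sulfur protein next to NDUFV1, had 28, 198, 241 and 405 counts and lay at 0.10 (-0.14 to 0.33). NDUFS1, the largest subunit, carries several iron-sulfur clusters and had only 2, 15, 24 and 37 counts. Its ratio of -0.04 (-0.81 to 0.78) is the least precise of the core. NDUFS3 and NDUFV2, like NDUFS1, NDUFS8 and NDUFV1, share exon sequence with another annotated gene on the same strand, and the labels do not say how such reads were assigned.

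Peripheral arm accessory mRNAs split into a light group and a level group, with 4 of 7 called lower and none higher. NDUFS6, a zinc-binding subunit, had 40, 700, 1219 and 785 counts and lay at -1.29 (-1.42 to -1.16). NDUFA2, which has a thioredoxin-like fold, had 40, 240, 631 and 270 counts and lay at -1.88 (-2.09 to -1.67). NDUFA6, a small protein of the LYR family, had 20, 268, 544 and 315 counts and lay at -1.44 (-1.65 to -1.24). These mRNAs shared a peak in the light polysomes, with CPM of 813, 421 and 363 there. NDUFV3, which sits at the NADH end of the arm, was called lower too, at -1.17 (-1.50 to -0.85).

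The others of this group lay level with the median gene or above it. NDUFS4, which is needed for a stable NADH-oxidising module, had 8, 61, 53 and 137 counts and lay at 0.71 (0.25 to 1.20). NDUFA12 had 11, 197, 161 and 323 counts and lay at 0.35 (0.08 to 0.63), and NDUFA5 had 12, 149, 111 and 172 counts and lay at -0.02 (-0.37 to 0.34). In all of these the monosome count exceeded the light polysome count. NDUFA5 has 12 named retrocopies in GENCODE 29, so its counts are uncertain.

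Membrane arm accessory mRNAs lay furthest toward the light polysomes as a group, with 11 of 17 called lower and 1 higher and a median of -1.52 (-2.14 to -0.28). NDUFB10, on the intermembrane-space side of the arm, was the most counted of all members with 83, 932, 2190 and 1347 counts and lay at -1.35 (-1.45 to -1.25). It lies tail to tail with RPS2 on chromosome 16, with 76 nucleotides between the annotated ends, and RPS2 had 53794 counts in the free library, where NDUFB10 had 83. NDUFS5 faces the intermembrane space and had 128, 617, 1182 and 930 counts. Its ratio of -0.998 (-1.12 to -0.87) stopped just short of the 2-fold rule. NDUFB4 had 33, 666, 930 and 508 counts and lay at -1.52 (-1.68 to -1.37). NDUFS5 and NDUFB4 have 6 and 12 named retrocopies.

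The lowest members of this group had short coding sequences. NDUFB1 had 21, 316, 579 and 116 counts and lay at -2.97 (-3.27 to -2.68). NDUFC1 had 16, 652, 452 and 91 counts and lay at -2.96 (-3.31 to -2.64), and NDUFB3 had 33, 381, 397 and 106 counts and lay at -2.55 (-2.88 to -2.24). In each of them the heavy polysome count was the lowest of the 3 ribosome-bearing libraries. NDUFA1, whose whole coding sequence stands above, had 29, 468, 660 and 252 counts and lay at -2.04 (-2.26 to -1.83). NDUFA3 had 18, 305, 767 and 273 counts and lay at -2.14 (-2.35 to -1.94). NDUFA8 (-1.56), NDUFB7 (-1.53) and NDUFB2 (-1.05) were called lower with narrower gaps to the median gene. NDUFC1 and NDUFB2 share exon sequence with another gene on the same strand.

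The exception in the membrane arm was NDUFA10, a subunit with a nucleoside-kinase fold and the longest coding sequence of the group. It had 1, 27, 23 and 222 counts and lay at 2.59 (2.00 to 3.31), above every other member. Its share of the heavy polysome library was 9.25-fold that of the light polysome library. NDUFB9, a LYR protein, had 34, 152, 481 and 1026 counts and lay at 0.44 (0.28 to 0.60), and NDUFB5 had 2, 37, 56 and 116 counts and lay at 0.39 (-0.07 to 0.89). NDUFB6 (-0.13) and NDUFB11 (-0.28) lay close to the median gene. NDUFA11 had 0, 19, 19 and 6 counts, and its ratio of -2.24 (-3.93 to -0.93) rests on few reads.

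NDUFAB1 is the mitochondrial acyl carrier protein, which binds LYR subunits in both arms and also serves fatty acid synthesis. It had 26, 182, 343 and 461 counts and lay at -0.23 (-0.43 to -0.02). NDUFA4 was first described in complex I and is now counted with complex IV. It had 63, 267, 571 and 275 counts and lay at -1.70 (-1.92 to -1.50). NDUFAB1 was highest in the heavy and NDUFA4 in the light polysomes.

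Assembly factor mRNAs covered nearly the whole range of the members, with 4 of 8 called lower and 1 higher. NDUFAF8, the partner of NDUFAF5, had 188, 1641, 843 and 153 counts, the most of all members in both the free and the monosome library. It lay at -3.11 (-3.37 to -2.86), the lowest member. NDUFAF5, which hydroxylates NDUFS7, had 1, 28, 56 and 38 counts and lay at -1.21 (-1.85 to -0.59). The 2 mRNAs of this pair were both called lower, and their coding lengths are 222 and 1035 nucleotides.

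NDUFAF3 and NDUFAF4 encode partners that act on the quinone module. NDUFAF3 had 25, 248, 676 and 792 counts and lay at -0.42 (-0.57 to -0.27), and NDUFAF4 had 13, 20, 103 and 170 counts and lay at 0.07 (-0.29 to 0.44). Neither was called. NDUFAF2 is a paralogue of the subunit NDUFA12 and stands in for it during assembly. NDUFAF2 had 8, 151, 223 and 70 counts and lay at -2.32 (-2.73 to -1.93), below NDUFA12 at 0.35, with intervals that did not overlap and coding lengths of 507 and 435 nucleotides.

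NDUFAF1, a member of the complex that builds the membrane arm, had 3, 4, 10 and 56 counts and lay at 1.78 (0.85 to 2.97). NDUFAF6, with a coding length of 999 nucleotides, had 4, 62, 93 and 39 counts and lay at -1.90 (-2.48 to -1.35). NDUFAF7, a methyltransferase, had 0, 12, 5 and 20 counts and lay at 1.25 (-0.11 to 3.12), an interval that included the median gene. NDUFAF1 and NDUFAF7 had the fewest reads of the assembly factors. In the order of all members by this ratio, 39 of 40 neighbouring pairs had overlapping intervals, so only members well apart in the order can be told from each other.

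**Figure D3:**
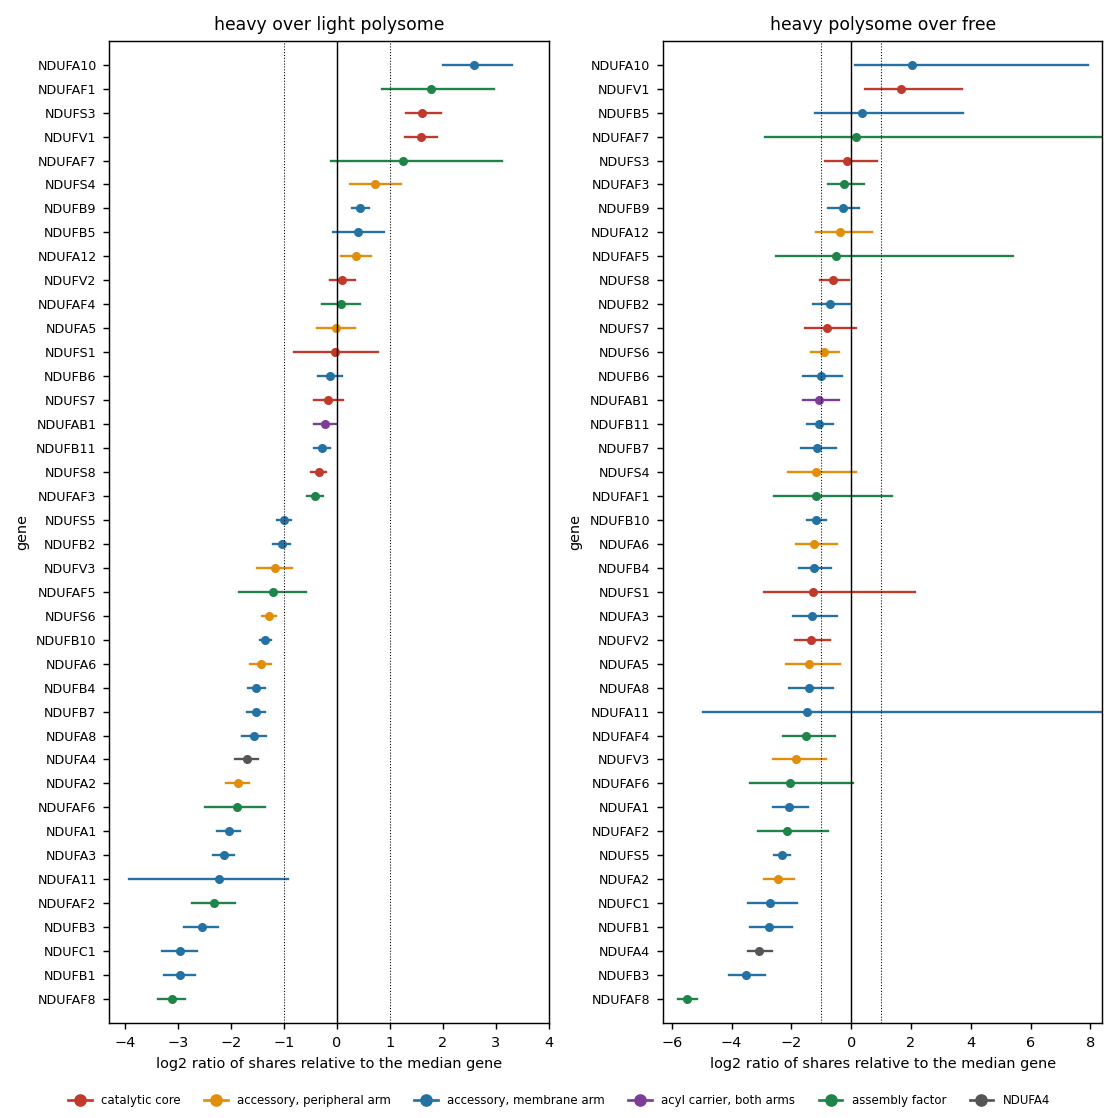
Points are log2 ratios of shares relative to the median gene (solid line at 0, dotted lines at 2-fold), bars are counting intervals, and colours mark roles; the left panel compares heavy with light polysomes and the right panel heavy polysomes with free, where bars that reach the right edge have no upper bound or run past it. NDUFA10 is highest at 2.59 and 2.03, and NDUFAF8 lowest at -3.11 and -5.48.

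The heavy to light ratio of the members followed their coding length. Coding length was that of the principal transcript in GENCODE 29, without the stop codon. It ran from 210 nucleotides in NDUFA1 to 2181 in NDUFS1, with a median of 468 against 1197 for the genes tested. Across the 41 members Spearman's rho between length and ratio was 0.71, and across 7423 other genes tested it was 0.32. Both are given as descriptions, since the genes share the same libraries and are not replicates. Their sizes cannot be compared, because 6 of 41 members but 4557 of the genes tested had 1000 or more coding nucleotides. With the shortest coding length in the CCDS set in place of the principal one, an alternative chosen after seeing the data, rho over the members was 0.59.

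All 7 members below 300 nucleotides were called lower, where the rule called 96.1% of 205 tested genes of that length lower. Between 300 and 450 nucleotides 8 of 12 members were called lower, beside 80.8% of 464 genes. Between 450 and 600 nucleotides it was 3 of 10 members, beside 47.5% of 568 genes. None of the members below 600 nucleotides was called higher, beside 0%, 0.43% and 4.75% of the genes tested in these bins, from short to long. From 1000 nucleotides upward 3 of 6 members were called higher and 1 lower, beside 33.5% and 17.6% of 4557 genes. The members' median in these bins was -2.14, -1.23, -0.25 and 1.36, where that of the genes tested was -2.62, -1.83, -0.96 and 0.41. Between 600 and 1000 nucleotides the members' median of -0.03 lay close to the -0.09 of 1670 genes tested. There 2 of 6 members were called higher and 1 lower, beside 23.1% and 27.7% of those genes. Only 3 of these 6 members lay above the median of the genes tested. Within their own bins, the one from 600 to 1000 included, 29 of 41 members lay above the median of the genes tested.

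Role and coding length went together for the core and the accessory subunits. Core mRNAs had coding lengths from 630 to 2181 nucleotides, membrane arm accessory mRNAs a median of 387 and peripheral arm accessory mRNAs a median of 372. No core mRNA was as short as the longest peripheral arm accessory mRNA, which has 525 nucleotides, so role and length cannot be told apart between these groups. Assembly factor mRNAs had a median length of 766.5 nucleotides, near the core's 792. Their heavy to light median was -0.81, with values from -3.11 to 1.78, and that of the core was 0.10. Set against the quartiles of the genes tested in the same length bin, 17 of 41 members lay above the upper quartile, 5 below the lower and 19 between. The 5 below were NDUFAF2 (507 nucleotides, -2.32), NDUFAF6 (999, -1.90), NDUFAF5 (1035, -1.21), NDUFB1 (315, -2.97) and NDUFAF8 (222, -3.11), with lower quartiles of -1.72, -1.13, -0.62, -2.52 and -3.09. Those above included NDUFA4 and NDUFA2, which were called lower over all genes tested, and NDUFA12, NDUFS4 and NDUFA10.

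**Figure D4:**
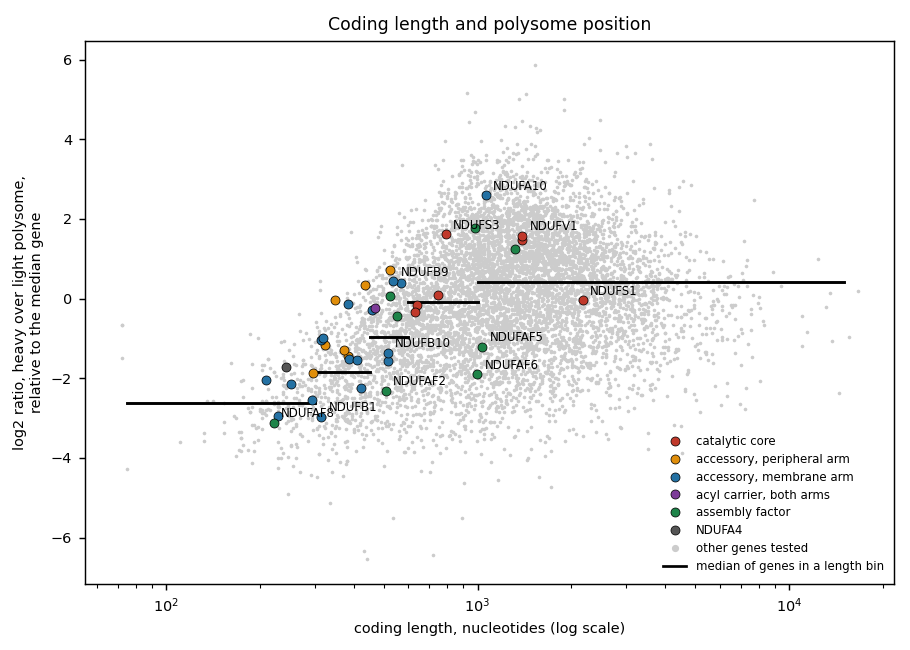
Coding length on a log axis is set against the log2 ratio of heavy over light polysome relative to the median gene, for the 41 members (coloured by role) and the other genes tested (grey); black lines are the medians of the genes tested in 5 length bins. Members below 300 nucleotides sit between -3.11 and -1.70, and NDUFAF2, NDUFAF5 and NDUFAF6 sit below the lines of their bins.

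Light polysomes and monosomes were compared to see which NDUF mRNAs were held by a single ribosome rather than a few. In the light polysomes 11 of 41 members were called lower and 1 higher, where the rule called 16.3% of the genes tested lower and 14.9% higher. The median member lay at -0.28 (-0.66 to -0.06). The lowest with 50 or more counts in the pair were NDUFAF8 at -2.12 (-2.24 to -1.998), NDUFC1 at -1.69 (-1.86 to -1.51) and NDUFA5 at -1.58 (-1.95 to -1.22). NDUFAF4 was the member called higher, at 1.18 (0.51 to 1.98), followed by NDUFB7 at 0.86 (0.65 to 1.09) and NDUFB6 at 0.75 (0.39 to 1.13). Without centring 12 members were called higher and 1 lower, beside 44% and 3.69% of the genes tested. With the libraries thinned to the depth of the free one, 5 members were called lower. The share of all genes tested called at that depth was not computed, so this drop cannot be set beside theirs.

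This comparison did not follow coding length, with a rho of 0.05 over the members. Of the peripheral arm accessory mRNAs 4 of 7 were called lower, NDUFA5, NDUFA12, NDUFS4 and NDUFV3, against 4 of 17 in the membrane arm and 1 of 7 in the core. A dip in the light polysomes was about as frequent among the members as among all genes tested. The CPM was lower there than in both the monosome and heavy polysome libraries for 6 of 41 members and 13.5% of the genes tested. The 6 were NDUFA10, NDUFA12, NDUFA5, NDUFAF7, NDUFS3 and NDUFS4. NDUFS3 had 81.2, 62.0 and 287 CPM in the monosome, light and heavy polysome libraries, and NDUFA10 had 20.3, 15.3 and 142 CPM. In the monosome and light polysome libraries these are small differences, of 108 and 93 counts for NDUFS3 and 27 and 23 for NDUFA10. Only these last 2 members were both called lower in light polysomes over monosomes and called higher in heavy over light polysomes, as were 6.28% of the genes tested.

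Monosomes and the free pool were compared at the light end of the gradient, from a centre that rests on genes with few free counts. Here the members stayed close to the median gene, at a median of 0.31 (-0.31 to 0.68), with 2 of 41 called higher and 4 lower beside 5.13% and 4.57% of the genes tested. NDUFC1, with 652 counts in the monosome and 16 in the free library, lay at 2.14 (1.47 to 2.99), and NDUFB4 lay at 1.14 (0.66 to 1.72). The counts of NDUFC1 are uncertain, since it shares exon sequence with MGARP on the same strand. NDUFAF2 lay at 0.99 (0.05 to 2.31) and was not called. The members called lower were NDUFB6 at -1.43 (-2.09 to -0.67), NDUFA4 at -1.10 (-1.49 to -0.67), NDUFB9 at -1.03 (-1.55 to -0.43) and NDUFAF4, which had 20 counts in the monosome and 13 in the free library, at -2.57 (-3.63 to -1.42). This split depends on the scaling: it was 7 higher and 2 lower with edgeR's TMM factors, beside 7.32% and 3.29% of the genes tested. Scaled by DESeq2, 5 members were higher and 3 lower, beside 6.04% and 4.12%, and without centring 26 higher and 1 lower, beside 27.2% and 0.797%. NDUFAF8, with the most free counts of any member, lay at -0.05 (-0.26 to 0.18).

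Heavy polysomes and the free pool, the ends of the gradient, were compared last, again from a centre that rests on genes with few free counts. In the heavy polysomes 22 of 41 members were called lower and 2 higher, where the rule called 15.3% of the genes tested lower and 6.36% higher, and 36 of 41 lay below the median gene. The median member lay at -1.17 (-1.41 to -0.91). NDUFAF8 had 97.8 CPM in the heavy polysome and 529 CPM in the free library and lay at -5.48 (-5.80 to -5.16). NDUFB3, with 67.8 CPM in the heavy polysome and 92.8 CPM in the free library, lay at -3.51 (-4.08 to -2.89), and NDUFA4, with 176 CPM in heavy polysomes and 177 CPM in the free pool, at -3.07 (-3.46 to -2.64). The 2 members called higher were NDUFA10, with 142 CPM in heavy polysomes and 2.81 CPM in the free pool, at 2.03 (0.12 to 7.92), and NDUFV1, with 331 CPM in heavy polysomes and 11.3 CPM in the free pool, at 1.67 (0.47 to 3.71). Both calls rest on few free counts, 1 for NDUFA10 and 4 for NDUFV1. By role 12 of 17 membrane arm and 4 of 7 peripheral arm accessory mRNAs were called lower, with medians of -1.26 and -1.24. Of the core mRNAs only NDUFV2 was, at a core median of -0.59. Of the assembly factors NDUFAF2, NDUFAF4 and NDUFAF8 were, at a median of -1.35.

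Without centring 30 members were called higher in the heavy polysomes and 1 lower, beside 72.5% and 3.02% of the genes tested, and 13 of the members called lower were then called higher. The count of lower members depends on where the median gene is set: it was 11 with TMM, with 3 higher, beside 12.5% lower and 12.4% higher among the genes tested. With DESeq2's size factors it was 14, with 2 higher, beside 13.2% and 10.6%. When a count of 0 was replaced by 3, the median over the members was -0.18. NDUFAF7 and NDUFA11 had no count in the free library. Against a floor of 3 counts there, the share of NDUFAF7 was 1.51-fold in the heavy polysomes and 1.07-fold in the monosomes. That of NDUFA11 was 1.69-fold in the monosomes. These values rest on 20, 12 and 19 counts and leave out their counting error, so they are not lower bounds. For NDUFA11 in the heavy polysomes, with 3.84 CPM against a floor of 8.44 CPM, no difference was detectable at this depth.

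The 7 symbols below the minimum of 30 counts included subunits of the complex. NDUFA13, NDUFA7, NDUFA4L2 and the read-through NDUFC2-KCTD14 had no count, NDUFB8 had 4, NDUFA9 had 12 and NDUFC2 had 24. Just inside the minimum were NDUFAF7 with 37 and NDUFA11 with 44. Of the 7 symbols 6 share exon sequence on the same strand with another protein-coding gene in GENCODE 29, as do 4 of the 41 members. Whether reads in such shared stretches were dropped was not tested, and these counts are no measure of the mRNA.

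Other genes of the respiratory chain were listed for comparison. In heavy over light polysomes the rule called 28.3% of all genes tested lower and 26% higher. Of 13 assembly factors of complex I without the NDUF symbol, 5 were called lower and 3 higher in heavy over light polysomes, with a median of -0.04. COA1, with 48 heavy polysome counts and 289 light polysome counts, was lowest at -3.23 (-3.71 to -2.80), and AIFM1, an oxidoreductase of the intermembrane space, highest at 2.12 (1.44 to 2.96). The NDUFAF genes ran from -3.11 to 1.78. Complex II and its assembly factors had 6 of 8 genes tested, with 3 lower, none higher and a median of -0.998. SDHC, a membrane anchor of complex II, lay at 0.75 (0.54 to 0.96) and the assembly factor SDHAF3, the lowest with 50 or more counts in the pair, at -1.77 (-2.33 to -1.25).

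Complexes III and IV and the ATP synthase also held genes at both ends of the range. In complexes III and IV 12 of 20 genes were called lower and 2 higher, with a median of -1.44. There UQCRC1, a large core protein of complex III, lay at 2.45 (2.11 to 2.83) and COX7A2L at -3.16 (-3.48 to -2.87), the lowest with 50 or more counts in the pair. Of the 16 ATP synthase genes listed, 8 were lower and 4 higher, with a median of -1.03. They ran from ATP5F1E at -3.09 (-3.31 to -2.88), with 153 coding nucleotides, to the catalytic subunit ATP5F1B at 2.49 (2.23 to 2.76), with 1587. The list left out ATP5MD and ATP5MPL, which were tested and lay at -3.35 and -2.06. Mitochondrial ribosomal protein mRNAs had 21 of 73 called lower (28.8%) and 16 higher (21.9%), with a median of 0.00. These shares were near the 28.3% and 26% of all genes tested. In heavy polysomes over free the medians were -0.75 for the other assembly factors, -1.11 for complex II, -2.06 for complexes III and IV, -1.20 for the ATP synthase and -0.88 for the mitochondrial ribosomal proteins, beside -1.17 for the NDUF members. With 1 library per pool these differences between lists were not tested.

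**Figure D5:**
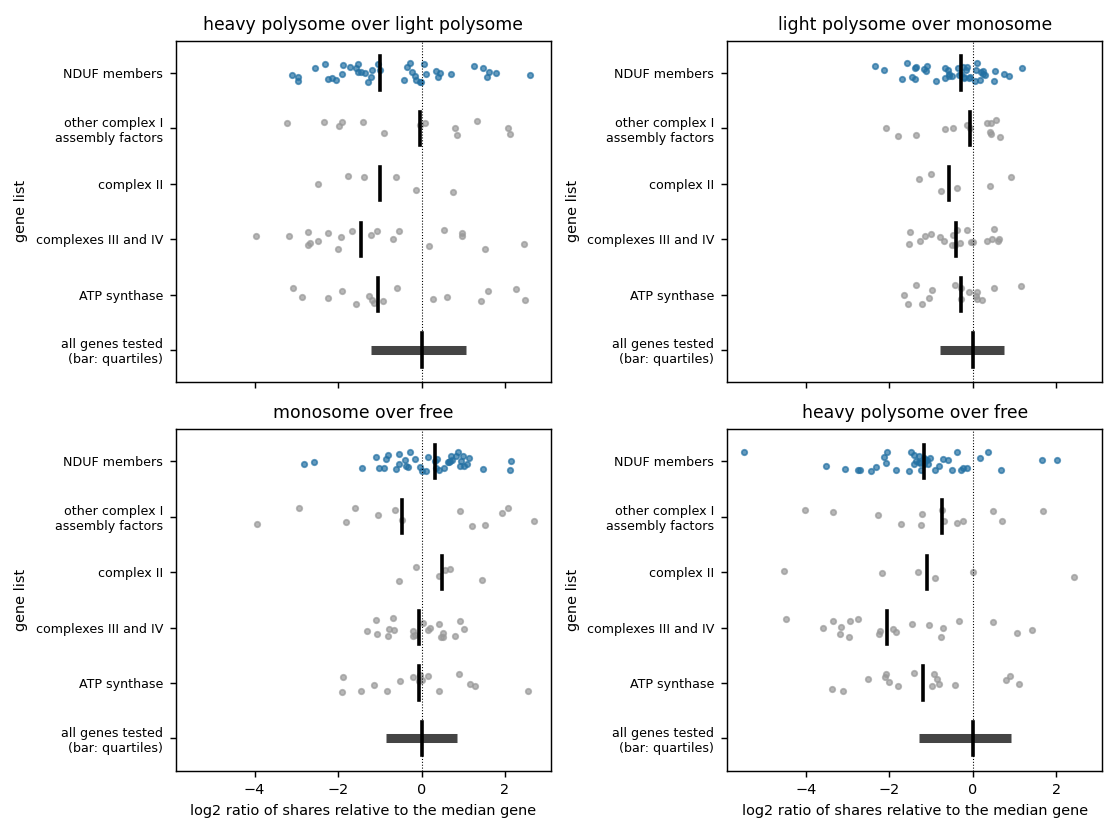
Each point is a gene, placed by its log2 ratio of shares relative to the median gene in 4 comparisons; rows are gene lists, black ticks their medians, and the bottom bar spans the quartiles of all genes tested. The NDUF members have a median of -0.998 in heavy over light polysomes and -1.17 in heavy polysomes over free.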

How the data were processed

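Direct RNA reads of 4 gradient pools were analysed. The authors deposited raw counts per gene symbol. The submitters' processing notes name minimap2 2.15, Subread 1.6.2 (featureCounts) and hg38. They name no annotation, multi-mapping or strand setting, so members with retrocopies (17 of 41) or exons shared with another gene on the same strand (8) or the opposite strand (17) are uncertain. All 4 columns were used. The members and lists were chosen with earlier results of these data known. The values of 1 member are not reported here in the text or by name in the plots, though it is in the counts and medians.

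Ratios of shares were computed after adding 0.5 to each count; intervals are exact conditional binomial (Clopper-Pearson), and medians have order-statistic intervals. There were no residual degrees of freedom, so no test could be fitted. The method was tested on simulated data. GENCODE 29 gave positions and coding lengths (99.2% of tested genes), RefSeq the starts. Members are named throughout. Counts are printed for the 3 most counted of each role and the 3 highest and lowest per comparison with 50 or more counts. Counts of others were chosen after seeing values. Other genes named are mostly the extremes of their lists. Tools were Python 3.11.15, numpy 2.4.6, pandas 2.3.3, scipy 1.17.1, matplotlib 3.10.9, R 4.3.3, edgeR 4.0.16 and DESeq2 1.42.0. Alternatives were other minimum counts, pseudocounts, thinning, scalings, summed counts, a floor and leaving out overlapping members.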

Additional observations from a re-analysis of the deposited data

How the results depend on the processing

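No paired analysis was possible because each pool has 1 library, and for the same reason no library could be left out. The heavy to light result kept its direction: its median ranged from -1.17 without overlapping members to -0.85 with a minimum of 100 counts where centring was kept, and was -0.41 without it, but the higher calls were 3 without overlapping members (NDUFS3 and NDUFV1 leave) and became 8, with 11 lower, without centring. In light polysomes over monosomes thinning gave 5 lower, and no centring gave 12 higher and 1 lower, with the median turned to 0.70. Monosomes over free, limited by the free library's depth, gave 7 higher and 2 lower with a minimum of 10 or with TMM, 9 and 2 with a pseudocount of 1, 5 higher with no pseudocount or with DESeq2 size factors, 1 higher without overlapping members, and 26 higher and 1 lower without centring; its median was 0.83 with the floor and, inside its interval, -0.11 when thinned. In heavy polysomes over free the median was -0.74 (minimum 10), -0.73 (pseudocount 1), -0.77 (none), -0.69 (TMM), -0.82 (DESeq2), -1.47 (summed counts) and -0.18 (floor). The lower calls there were 11, 10, 13, 11 and 14 in the first 5 of these; higher calls were 1 without overlapping members, and no centring gave 30 higher and 1 lower, with 13 members turned from lower to higher and a median of 1.87. The mean gradient position had a median of 3.85 with weights of 0, 1, 3 and 8 (4.95 for genes tested) and 2.13 without the free library (2.35). The TMM centre lay at -0.48 (log2) relative to the median gene in heavy polysomes over free and at -0.23 in monosomes over free, and that of DESeq2 at -0.35 and -0.09. Leaving out centring and the shortest coding length were chosen after seeing the data, as was a minimum of 10 counts in both libraries, under which the heavy to light median did not move. The cause of these changes was not tested. For calls under other minimum counts, other pseudocounts and thinning, the share of all genes tested was not computed. Of 1128 values of single members under the other minimum counts, pseudocounts, thinning, TMM and DESeq2, 1068 stayed inside their counting interval and 60 moved outside it, none turning a call round.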
